A study of Mus musculus with 20 samples.

Results

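The cluster PT holds the cells that the authors' annotation of 20 kidney libraries named PT, a proximal tubule name that carries no segment, beside the clusters PCT (proximal convoluted tubule) and PST (proximal straight tubule). Its members were taken by that name alone, and 15535 of 136794 cells had it, against 10809 cells in PCT and 21004 in PST. The study asked how kidneys repair after a shorter or a longer ischemia-reperfusion injury (IRI). All mice were male C57BL/6J, 10 to 12 weeks old at surgery for the ischemia groups. Both renal pedicles were clamped for 23 min (IRI short) or 30 min (IRI long), and kidneys were taken 1, 3 or 14 d later, which gave 2 libraries per ischemia time and time point. The 6 control libraries carry only the name Control, and the labels do not tell whether those mice had sham surgery. The inhibitor experiment added 1 library of a kidney treated with VX-765 (VX765 in the labels) at 100 mg/kg, and 1 of a kidney treated with liproxstatin at 10 mg/kg, both after IRI long. These mice were injected into the peritoneum 30 min before and every 24 h for 14 d after the ischemia, and they were killed at 14 d. A vehicle library was not analysed here, so the IRI long libraries of 14 d that stand beside the treated ones carry no vehicle label. Whole kidneys were dissociated with enzymes, so a share of cells reflects both the kidney and the recovery of its cells.

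The proximal tubule takes back most of the filtered glucose, amino acids, phosphate and bicarbonate. Its convoluted part (segment S1 and onward) reabsorbs the bulk of these solutes, while the straight part (segment S3) lies in the outer medulla, where oxygen supply is low, and is known as the part of the tubule most exposed to ischemic damage. Surviving proximal tubule cells can lose their differentiated state after injury and divide to replace lost neighbours.

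The deposited tables used here give a cluster name, a treatment group and map coordinates for each cell and no transcript counts, so the name PT could not be checked against marker genes. Cell numbers set the precision: a library had between 2064 and 14320 cells, and the number of PT cells ran from 113 in an IRI long library of 3 d (IRF7) to 2757 in the liproxstatin library. Exact 95% binomial (Clopper-Pearson) intervals are given where a library stands alone, and they cover counting error only. By their cell barcodes, 5 of the 6 control libraries seem to draw on a smaller barcode pool (an implied size of 746058) than the sixth, norm5, shares with the IRI and inhibitor libraries (3565235). This difference cannot be told apart from the control group, so values with norm5 as the only control are given beside the comparisons. Between 0.935 and 5.68% of the PT barcodes of a library recurred in another library. An earlier annotation of the same cells without the inhibitor libraries names 18 clusters, and it holds 10779 of the PT cells. These earlier names, made from the same cells, are the only other description of the PT cells, and in most IRI libraries they go against the name PT for the larger part of them. "PT cells" below therefore means cells placed in that cluster and not a checked cell type.

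PT cells made up a smaller share of all recovered cells after either ischemia, at all 3 time points, but their share fell less than those of PCT and PST. In control libraries the PT share of all cells was lowest at 12.7% (norm5), had a median of 15.8% and was highest at 18.5% (Scl). In IRI short it was 5.33 and 3.91% at 1 d, 4.97 and 10.8% at 3 d, and 9.14 and 8.52% at 14 d. In IRI long it was 8.65 and 2.57% at 1 d, 7.73 and 5.47% at 3 d, and 2.35 and 5.17% at 14 d. Every IRI library lay below every control library, and the libraries of one group differed most in IRI long at 1 d. Of the 19 clusters, 4 (21.1%) lay below all control libraries in every IRI short library and 5 (26.3%) in every IRI long library, PT, PCT and PST among them.

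The mean PT share was 15.7% ± 2.58 (SD, n = 6) for control, 7.12% ± 2.75 (SD, n = 6) for IRI short and 5.33% ± 2.58 (SD, n = 6) for IRI long, which is 2.21-fold and 2.95-fold lower than in control. Both differences passed a two-sided exact permutation test over libraries (−8.61 percentage points for IRI short and −10.4 for IRI long, each p = 0.00216, the smallest that this design allows, and adjusted p = 0.00433 over 12 tests). The fall was larger in the convoluted and straight tubule clusters. The mean share of PCT was 4.36-fold lower in IRI short and 6.50-fold lower in IRI long, and that of PST 4.07-fold and 6.67-fold lower. With norm5 as the only control, the PT share differed by −5.59 percentage points in IRI short and −7.38 in IRI long. In norm5 PCT held 10.9% and PST 11.3% of the cells, against means of 12.1 and 22.5% over all control libraries. The means in IRI short and IRI long were 2.78 and 1.86% for PCT and 5.52 and 3.37% for PST. The fall of PST was thus smaller from norm5 than from the control mean, though in fold still larger than that of PT.

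In limma on the logit scale over all 19 clusters, 12 clusters (63.2%) changed between IRI short and control, 5 of them (26.3%) lower, and 14 (73.7%) between IRI long and control, 7 of them (36.8%) lower. PT fell by 0.94 on the logit scale in IRI short (SE 0.24, limma adjusted p = 0.00235) and by 1.30 in IRI long (SE 0.24, limma adjusted p = 1.42e-04). In the same fit the changes in IRI short and IRI long were −1.64 and −1.96 for PCT and −1.63 and −2.11 for PST. With the barcode pool as a term in the fit, PT changed by −0.71 in IRI short and −1.06 in IRI long. The control level then rests on norm5 alone, the only control library in the pool of the IRI libraries, so no call is read from it.

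The PT share of all cells also depends on how many immune cells a library holds. Among cells outside the 6 immune clusters, the PT share was 17.0% ± 2.17 (SD, n = 6) for control, 11.3% ± 4.56 (SD, n = 6) for IRI short and 11.5% ± 4.69 (SD, n = 6) for IRI long. IRI libraries then ran from 3.89 to 17.1% and overlapped with control libraries, which ran from 14.5 to 19.3%. These differences of −5.70 and −5.55 percentage points missed the threshold narrowly (each adjusted p = 0.0519, exact permutation test). In limma with immune and other clusters taken apart, PT changed by −0.54 in IRI short (limma adjusted p = 0.0584) and −0.55 in IRI long (limma adjusted p = 0.0487). The differences were −4.47 and −1.83 percentage points (adjusted p = 0.177 and 0.667, exact permutation test) when the cluster Fibro, most of whose cells carried the earlier name Mono_1, was also left out.

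**Figure D1:**
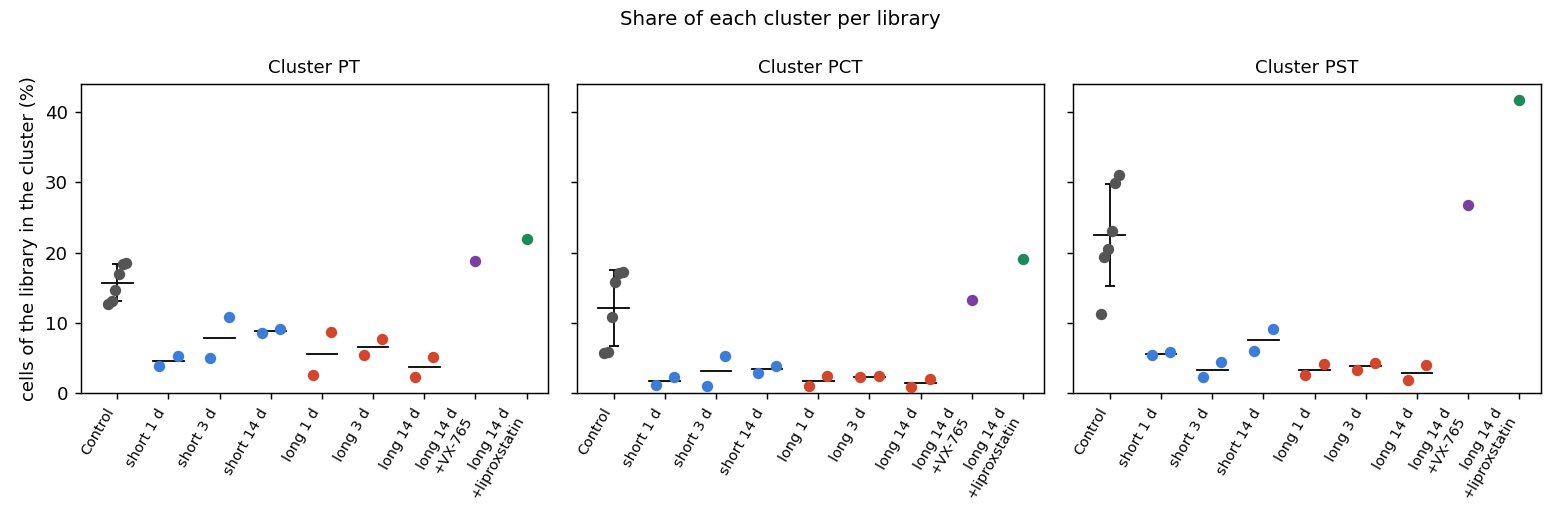
Percent of a library's cells in the clusters PT, PCT and PST (y axis) for each treatment group (x axis). Each point is 1 library, horizontal lines are group means and the bar in control is the SD (n = 6); PT reaches 10.8% at most in IRI libraries without inhibitor, below the lowest control library at 12.7%, and the inhibitor libraries (1 each) stand at 18.8 and 21.9%.

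Because PT fell less than PCT and PST, it took a larger part of the 3 proximal tubule clusters after ischemia. In control libraries PT held 27.7% (lowest), 31.8% (median) and 36.4% (highest) of the PT, PCT and PST cells. In IRI short it held 39.4 and 37.4% at 1 d, 60.2 and 52.5% at 3 d, and 41.1 and 49.0% at 14 d. In IRI long it held 56.4 and 41.7% at 1 d, 57.5 and 45.4% at 3 d, and 46.1% in both libraries of 14 d. All IRI libraries lay above all control libraries, and the median over both ischemia times was highest at 3 d (55.0%). The means were 32.0% ± 3.70 (SD, n = 6) for control, 46.6% ± 8.87 (SD, n = 6) for IRI short and 48.9% ± 6.45 (SD, n = 6) for IRI long. The differences of 14.6 and 16.9 percentage points each gave p = 0.00216 and adjusted p = 0.00433 in the exact permutation test, and they were 10.2 and 12.4 with norm5 as the only control. Among cells that the earlier annotation gave a proximal tubule name, neither increase passed the test.

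In the earlier annotation the PT cells carried mainly 3 names. Of the 10779 PT cells of the 18 libraries, 4350 (40.4%) were named PT S3, 3434 (31.9%) PT S1 and 2588 (24.0%) T cell_2, a lymphocyte name. No other name reached 1% of the PT cells. The pooled numbers hide a split between control and injured kidneys.

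In control libraries the share of PT cells earlier named PT S1 or PT S3 was lowest at 76.3% (norm5), had a median of 91.7% and was highest at 99.6% (Scl). In IRI short it was 56.4 and 60.8% at 1 d, 22.2 and 32.7% at 3 d, and 45.0 and 41.0% at 14 d. In IRI long it was 47.3 and 63.4% at 1 d, 28.6 and 23.0% at 3 d, and 32.5 and 30.2% at 14 d. No IRI library reached the lowest control library, and proximal tubule names were in the minority in every library of 3 and 14 d. The means were 90.0% ± 8.75 (SD, n = 6) for control, 43.0% ± 14.4 (SD, n = 6) for IRI short and 37.5% ± 15.0 (SD, n = 6) for IRI long. Both differences from control passed the exact permutation test (−47.0 and −52.5 percentage points, each p = 0.00216, adjusted p = 0.00433), and with norm5 as the only control they were −33.3 and −38.7.

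The name T cell_2 made up most of the remainder in all libraries but Scl and IRF5. It was given to between 0.04 and 18.8% of the PT cells in control libraries, with a median of 6.11%. In IRI libraries it was given to 7.43 to 41.5% at 1 d, 65.4 to 74.4% at 3 d and 49.2 to 64.7% at 14 d. The library at 7.43%, an IRI long library of 1 d (IRF5), was the one IRI library inside the control range. There 42 of 202 PT cells (20.8%) were earlier named GEC, glomerular endothelial cells, a name singled out after its value was seen. As a share of all cells of a library, PT cells named T cell_2 were 1.08% ± 0.88 (SD, n = 6) for control, 3.85% ± 2.04 (SD, n = 6) for IRI short and 2.93% ± 1.79 (SD, n = 6) for IRI long. The highest control library was norm5 at 2.39%. Above it lay 1 of 4 IRI libraries of 1 d, 4 of 4 of 3 d and 3 of 4 of 14 d.

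**Figure D2:**
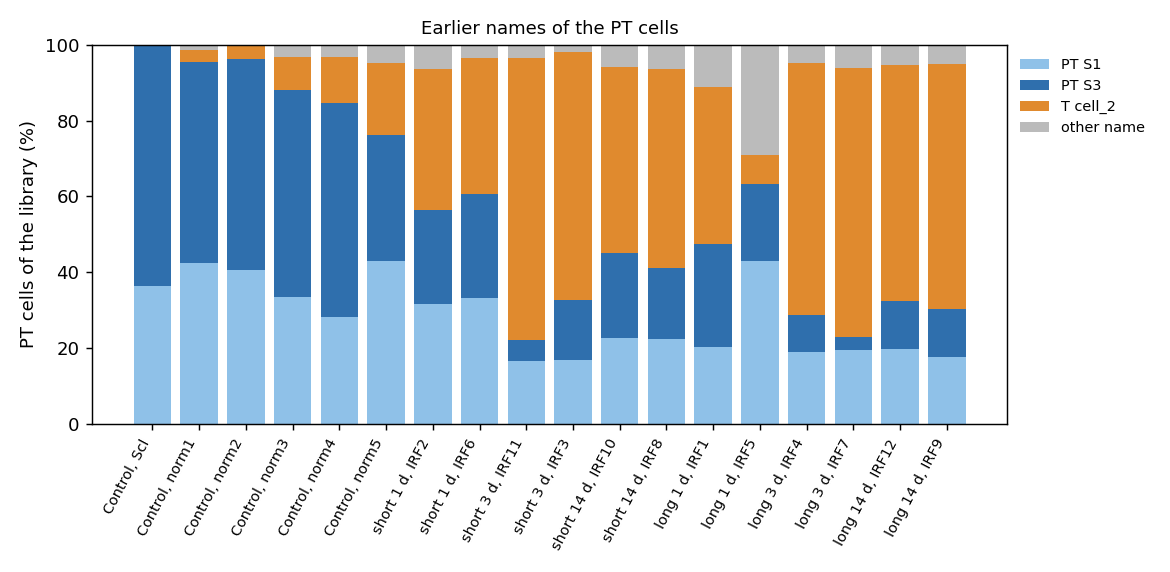
Percent of the PT cells of each of the 18 libraries (y axis) with the earlier names PT S1, PT S3, T cell_2 or any other name (stacked bars), with libraries ordered by group (x axis). T cell_2 stays at or below 18.8% in control libraries and reaches 74.4% in IRI short at 3 d.

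Seen from the side of the earlier annotation, T cell_2 was divided between clusters of the later one. Of 6396 T cell_2 cells, 2588 (40.5%) were placed in PT, 2353 (36.8%) in the cluster T cell and 365 (5.71%) in the cluster named Ribos. Per library, PT took 0.41% of the T cell_2 cells in Scl, 22.6 to 29.1% in the other control libraries, 41.5 to 55.5% in IRI short and 12.5 to 65.0% in IRI long. In the map of the earlier annotation, the T cell_2 cells later placed in PT lay almost wholly among T cell_2 cells. Of their 30 nearest neighbours, 96.3% on average were T cell_2, 0.35% PT S1 and 0.37% PT S3. They were also partly apart from other T cell_2 cells there, since 56.2% of those neighbours were cells later placed in PT and 22.7% cells later placed in the cluster T cell. Which of the annotations describes these cells cannot be told from names and map positions.

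When PT alone was restricted to cells with a proximal tubule name, a choice made with the values in view, its fall changed. Against the mean of all control libraries it was then about as large as those of PCT and PST, in which all cells were counted. PT cells named PT S1 or PT S3 were 14.3% ± 3.59 (SD, n = 6) of all cells for control, 2.94% ± 1.07 (SD, n = 6) for IRI short and 1.92% ± 1.17 (SD, n = 6) for IRI long, or 4.87-fold and 7.45-fold lower than in control. These differences of −11.4 and −12.4 percentage points passed the exact permutation test (each adjusted p = 0.00649). The logit changes of these cells in limma were −1.76 and −2.25 (limma adjusted p = 1.30e-05 and 4.54e-07). In norm5 these cells were 9.69%, PST 11.3% and PCT 10.9% of all cells. From norm5 the fold fall of these cells lay between those of PST and PCT.

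No increase of the PT part of the 3 clusters passed the test when cells were counted by proximal tubule name. With only cells named PT S1 or PT S3 in all 3 clusters, the mean difference from control was 4.49 percentage points in IRI short (adjusted p = 0.468) and 4.95 in IRI long (adjusted p = 0.548, exact permutation tests). With this restriction on the PT cells alone it turned to −3.39 (adjusted p = 0.0208) and −3.71 (adjusted p = 0.392). The restricted values differed by day. Control libraries ran from 27.6 to 34.1%, and the libraries of 1 d stood at 43.5 and 48.2% in IRI short and 53.1 and 52.5% in IRI long. Those of 3 d ran from 21.3 to 36.0% and those of 14 d from 24.7 to 28.7%. All 4 libraries of 1 d thus lay above every control library, while the later ones lay within the control range or on either side of it. The contrast of 1 d was seen in the values first, and it was not tested.

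**Figure D3:**
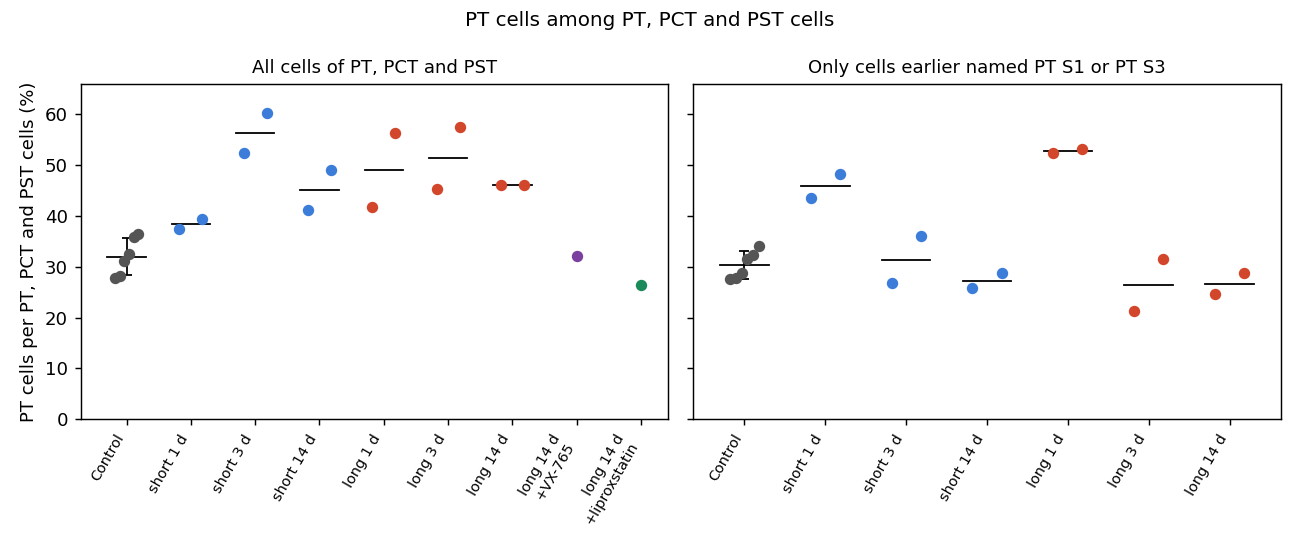
PT cells as a percent of the PT, PCT and PST cells of each library (y axis) by treatment group (x axis), for all cells (left) and for cells earlier named PT S1 or PT S3 only (right, without the inhibitor libraries, which the earlier annotation does not hold). Points are libraries, lines group means and the bar in control the SD (n = 6); on the right the libraries of 1 d stand at 43.5 to 53.1% and the controls at 27.6 to 34.1%.

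The reverse question is how much of the earlier proximal tubule clusters went into PT. Over the 18 libraries, PT took 3434 of 11175 PT S1 cells (30.7%), against 57.9% in PCT and 8.13% in PST, and 4350 of 17210 PT S3 cells (25.3%), against 59.5% in PST and 2.58% in PCT. Pooled over libraries, PCT and PST thus divided S1 and S3 cells as their names say, while PT drew on both segments. Single libraries varied. PST took 26.2 to 54.9% of the PT S1 and PT S3 cells in control libraries, and 7.37% (IRF5) to 45.5% (IRF8) in IRI libraries. The share of a library's PT S1 and PT S3 cells that was placed in PT was 29.4% ± 2.28 (SD, n = 6) for control, 26.5% ± 3.17 (SD, n = 6) for IRI short and 24.5% ± 13.8 (SD, n = 6) for IRI long. Neither difference from control passed the exact permutation test (−2.89 percentage points with adjusted p = 0.152, and −4.85 with adjusted p = 0.548), and with norm5 as the only control the differences were −5.45 and −7.41. The IRI long libraries were widely spread, from 6.85% at 14 d (IRF12) to 48.4% at 1 d (IRF1), and the difference from control was −9.62 without IRF1 (adjusted p = 0.0148) and −1.32 without IRF12 (adjusted p = 0.930, exact permutation tests).

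The segments differed in this respect. Of the PT S1 cells, 27.0 to 36.7% were placed in PT in control libraries. At 1 d the share was 43.1 and 51.8% in IRI short and 50.5 and 43.7% in IRI long, above every control library. It was 26.5 to 41.7% at 3 d and 28.6 to 38.6% at 14 d, which overlaps with control. Of the PT S3 cells, 24.5 to 36.7% were placed in PT in control libraries. In IRI libraries PT took 3.12 to 21.8% of them, below every control library, except for IRF1 with 46.9%. The balance of segments inside PT moved accordingly. PT S3 made up 43.5 to 66.6% of the PT cells with a proximal tubule name in control libraries, 24.4 to 49.4% of them in IRI short and 15.4 to 57.2% of them in IRI long, although its mean share of all PT S1 and PT S3 cells was 59.0% for control, 60.1% for IRI short and 59.8% for IRI long. These segment values are descriptions without a test.

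Part of the difference went to clusters outside the proximal tubule. In control libraries 1.85 to 6.48% of the PT S1 and PT S3 cells were placed outside PT, PCT and PST, and in IRI libraries 5.81 to 76.1%. The highest value was that of IRF12, in which the neutrophil clusters Neutro_2 and Neutro_1 took 29.4 and 8.63% of the 788 such cells and DCT1, a distal convoluted tubule name, took 243 of them (30.8%). Neutro_2 also took 4.69% in IRF9, the other IRI long library of 14 d. DCT1 also took 31.4% of them in IRF5 and 21.0 and 23.0% in the IRI short libraries of 1 d. DCT1 and the neutrophil clusters were singled out after these values were seen.

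**Figure D4:**
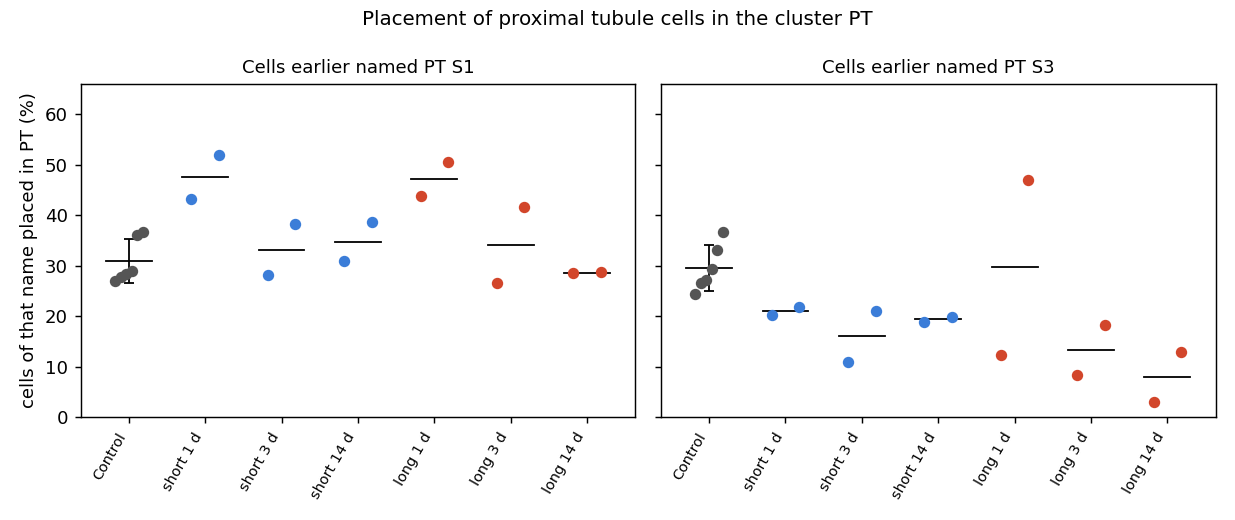
Percent of the cells earlier named PT S1 (left) or PT S3 (right) that were placed in PT (y axis) by treatment group (x axis). Points are libraries, lines group means and the bar in control the SD (n = 6); at 1 d PT took 43.1 to 51.8% of the PT S1 cells, above the highest control library at 36.7%.

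In the map of all 20 libraries, PT formed a field of its own below PCT and PST. These positions come from the same expression values as the clusters, so they describe the cluster and do not test it. Of the 30 nearest neighbours of a PT cell, 93.2% on average were PT cells, 2.52% PST and 1.43% PCT, and 7997 PT cells (51.5%) had PT neighbours only. The earlier names held different places in that field. The median of PT cells named PT S1 lay at −4.77 on the first axis, on the side of PCT, and that of PT S3 at −6.50, on the side of PST. The median of those named T cell_2 lay at −7.21 on the first and 1.20 on the second axis, at the far end from PCT and PST. PST cells were 5.60% of the neighbours of PT cells named PT S3 and 0.16% of those of PT cells named T cell_2. The distance of the latter median from that of the cluster T cell was 10.8 map units, against 1.89 from the median of PT and 2.10 from that of Ribos., so in this map they did not lie near the T cells.

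**Figure D5:**
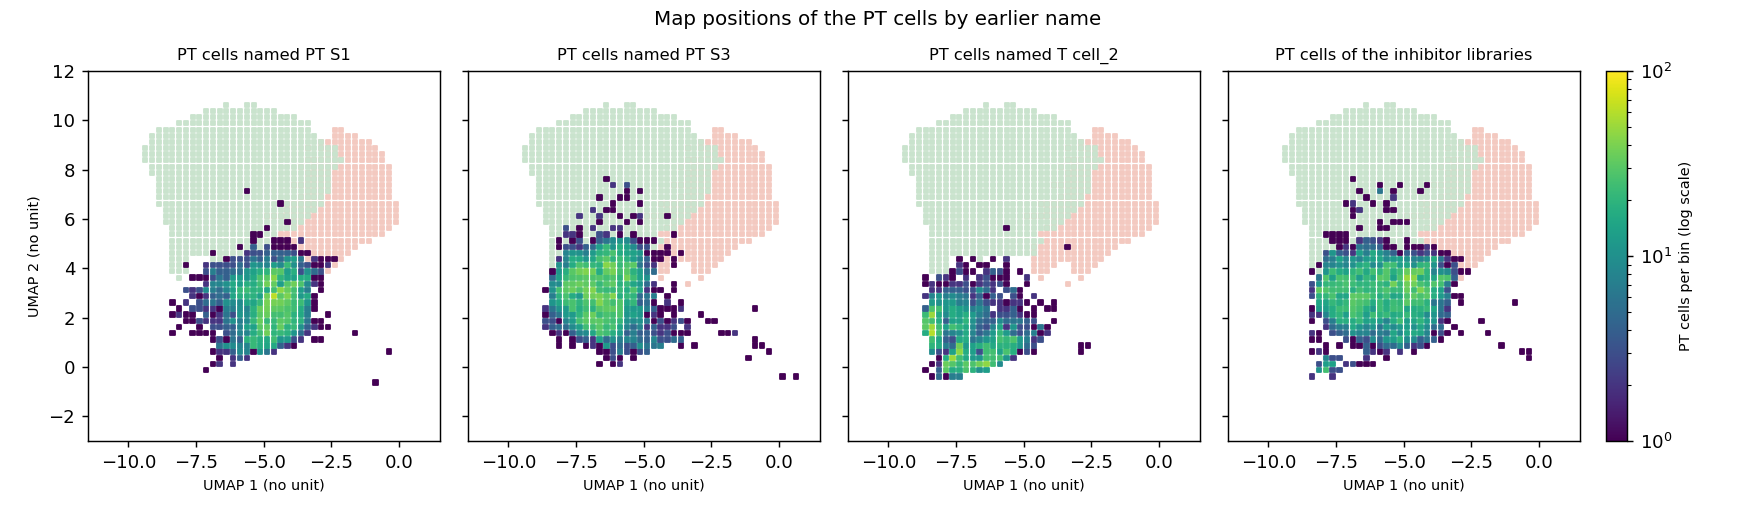
Number of PT cells per square bin of 0.25 map units (colour, log scale) in the map of the 20 libraries (axes UMAP 1 and UMAP 2, no unit), for PT cells earlier named PT S1, PT S3 or T cell_2 and for those of the inhibitor libraries. Pale red and green squares mark bins with at least 5 PCT or PST cells; PT cells named T cell_2 lie along the lower left edge, with their median at −7.21 and 1.20.

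Over all days, no difference in PT between the lengths of ischemia passed a test. IRI long was compared with IRI short by a two-sided exact permutation test within days, whose smallest possible p is 0.00926. The PT share of all cells differed by −1.79 percentage points (exact p = 0.287, adjusted p = 0.383) and the PT part of the 3 clusters by 2.26 (exact p = 0.611, adjusted p = 0.667). The share of PT cells with a proximal tubule name differed by −5.50 percentage points (exact p = 0.139, adjusted p = 0.208). Without IRF1 and without IRF5, the libraries that moved these values most, the first difference was −2.80 and −0.78, the second −0.18 and 4.69, and the third −2.83 and −8.17, none of them past the threshold. In limma 5 of the 19 clusters (26.3%) changed between IRI long and IRI short and PT was not one of them (−0.36 on the logit scale, SE 0.24, limma adjusted p = 0.312; −0.57 without IRF1 and −0.14 without IRF5).

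At 14 d both IRI long libraries, at 2.35 and 5.17%, lay below both IRI short libraries, at 8.52 and 9.14%. This change of −0.98 on the logit scale (SE 0.42) missed the threshold (limma adjusted p = 0.0926), which 4 of 19 clusters (21.1%) passed. Its size and its side of the threshold moved with single libraries. Without IRF12 it was −0.57 (limma adjusted p = 0.626), without IRF9 −1.39 (limma adjusted p = 0.0734) and without IRF10 −0.94 (limma adjusted p = 0.338), while leaving out IRF1 or IRF5, the IRI long libraries of 1 d, kept −0.98 with limma adjusted p = 0.0434. The centred log-ratio gave −0.59 (limma adjusted p = 0.396). With PT cells of a proximal tubule name only it was −1.27 (limma adjusted p = 0.0424), and among non-immune cells −0.20. From 1 and 3 d to 14 d, PT changed by 0.45 in IRI short (limma adjusted p = 0.750) and by −0.49 in IRI long (limma adjusted p = 0.350). The difference between these courses was −0.94 (SE 0.52, limma adjusted p = 0.394). With single libraries left out, the change in IRI short ran from 0.24 (without IRF11) to 0.66, that in IRI long from −0.89 (without IRF9) to −0.08 (without IRF12), and their difference from −1.34 to −0.53 (the same libraries), with no call in any of these fits. Over all clusters, limma called 0 of 19 (0%) for the change in IRI short, with 0 at an unadjusted p under 0.05, 1 (5.26%) for IRI long and 0 (0%) for the difference, with 1 at an unadjusted p under 0.05.

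In the inhibitor libraries the PT share was above that of every control library, by less than its counting interval for VX-765. PT held 18.8% of 10610 cells (95% interval 18.1 to 19.6%) with VX-765 and 21.9% of 12605 cells (21.2 to 22.6%) with liproxstatin, which is 5.01 and 5.81 times the mean of the IRI long libraries of 14 d. PCT, at 13.2 and 19.1%, and PST, at 26.7 and 41.6%, were 8.96 and 12.9 times and 9.15 and 14.2 times that mean. PT therefore took a smaller part of the 3 clusters than in IRI long at 14 d, with 32.0% (30.9 to 33.2%) under VX-765 and 26.5% (25.6 to 27.3%) under liproxstatin. The VX-765 value lay within the control range and the liproxstatin value below its lowest library at 27.7%. Among non-immune cells the PT share was 21.3 and 23.1%, against 9.51 and 14.6% in IRI long at 14 d. That denominator includes the cluster Fibro. It held 483 of 1746 such cells in IRF12 and 638 of 2567 in IRF9, the IRI long libraries of 14 d. With VX-765 it held 225 of 9362 and with liproxstatin 141 of 11958. Without Fibro the gap between these libraries would be smaller. With 1 library per inhibitor there was no replicate and no test, and the experiment, the vehicle and the compound cannot be told apart.

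The earlier annotation does not hold the 4756 PT cells of these libraries, so their earlier names were approximated by the names of the 30 nearest cells of the 18 libraries in the map. Of these neighbours 12.0% were named T cell_2 for VX-765 and 9.87% for liproxstatin. The same measure, taken from the other libraries only, gave 11.4 to 17.8% in control libraries and 25.2 to 47.8% in IRI libraries. Both inhibitor values lay below those of every IRI library. The measure is rough, since it departed from the true share by −29.3 to 17.8 percentage points in the 18 libraries. Among control libraries it did not follow the true share, with 17.8% against 0.04% in Scl and 17.4% against 18.8% in norm5. Places of the inhibitor libraries within or below the control range are therefore not read. The median position of the inhibitor PT cells, −5.74 and 3.03, lay between those of PT cells named PT S1 and PT S3.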

How the data were processed

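For the single-cell RNA-seq libraries of mouse kidneys, the methods name 10X 3′ v3 kits. Whether every library was made with the same kit was not tested, and the implied barcode pools differed (746058 and 3565235). Per the labels and methods, the authors used Cell Ranger (mm10, GRCm38) and Seurat, applied limits on detected genes and mitochondrial reads, took out doublets, integrated libraries with LIGER and annotated the clusters manually. How the 20-library annotation was made is described only for a dataset of another size. The deposited map coordinates are a score without unit, and other columns hold names. Members, lists and tests were chosen with earlier results of these data known. Named clusters are PT, PCT, PST, earlier clusters holding at least 1% of PT cells, and clusters holding at least 5% of PT neighbours. Others (GEC, DCT1, Ribos., T cell, Fibro, Mono_1, Neutro_1, Neutro_2) were named after their values were seen.

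Cells were joined by barcode and counted per library, the replicate. Methods give each library as 1 mouse. Immune clusters were Neutro_1, Neutro_2, Macro, T cell, NK and B cell. Library means were compared by exact permutation (two-sided, 924 splits, or 216 within days), with Benjamini-Hochberg adjustment over 12 tests. Fractions of 19 clusters were compared with limma 3.58.1 (R 4.3.3) on the logit scale, 0.5 cells added, 7 group means, threshold 0.05, and this step was tested on simulated data. Other steps used Python 3.11.15, scipy 1.17.1 and scikit-learn 1.9.0. Alternatives were the logit, arcsine and log-ratio scales, pooled cells, other denominators, the 3 clusters together, permutation without days and leaving out each library. Chosen after seeing the data were 4 more: the proximal tubule names, the cluster Fibro as immune, norm5 as sole control and the barcode pool as a term. The last of these also rests on norm5 as the control level.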

Additional observations from a re-analysis of the deposited data

Results flagged for a closer look

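Of 18 sets of 6 libraries checked for a library far from the others (6 measures in control, IRI short and IRI long), 1 was singled out, about as many as chance gives at 1 in 20. In the control library Scl, PT took 0.413% of the cells earlier named T cell_2, while in the other control libraries it took 22.6 to 29.1%. The gap made up 0.772 of the range of the control group, which is above Dixon's critical value for 6 samples.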

How the results depend on the processing

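No paired analysis was possible because the libraries in the tables carry no replicate number of the sample list. For the PT share of all cells, non-immune cells as denominator gave −5.70 and −5.55 percentage points against control (adjusted p = 0.0519, exact permutation tests) and turned IRI long against IRI short to 0.14. With Fibro counted as immune, these were −4.47, −1.83 and 2.64. Among the 3 clusters, PT cells of a proximal tubule name gave −3.39, −3.71 and −0.32, and that name in all 3 clusters 4.49 and 4.95. With norm5 as the only control, the PT shares differed by −5.59 and −7.38 and the shares with proximal tubule names by −33.3 and −38.7. In limma, immune and other clusters apart gave −0.54 for IRI short (limma adjusted p = 0.0584) and 0.20 for 14 d against 1 and 3 d in IRI long, the barcode pool as a term −0.71 for IRI short, and proximal tubule names only −1.27 for IRI long against IRI short at 14 d. The cause was not tested.

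Leaving out each library in turn kept every call against control of the first 3 measures and of limma. The ranges were −9.35 to −7.97 and −11.1 to −9.81 for the PT share of all cells, 11.9 to 16.4 and 15.1 to 18.3 for the 3 clusters, −50.5 to −42.8 and −57.7 to −49.6 for proximal tubule names, and −9.62 to −1.32 for IRI long in the share of PT S1 and PT S3 cells placed in PT. For IRI long against IRI short the 3 clusters gave −0.18 (without IRF1) to 4.69 and the placed cells −5.99 (without IRF1) to 2.06 (without IRF5, and 0.05 without IRF12). The limma change at 14 d ran from −1.39 (without IRF9) to −0.57 (without IRF12). Where a library of a pair was left out, the remaining one was taken to vary like the other groups. Of 313 planned values with a test, 302 kept direction and side of the threshold and 11 did not; 12 values pooled over cells had no test and moved by less than the spread between replicates. Cell numbers limit single libraries most in IRF7, with 113 PT cells.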
